A study of Mus musculus with 4 samples.

Results

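*Ccl2*, *Ccl7*, *Ccl8* and *Ccl12* encode the monocyte-attracting chemokines of the mouse, and these 4 genes, found by their symbols among the 27998 genes of the count tables, were followed in 4 single-cell libraries of injured muscle. Cardiotoxin, a venom component that kills muscle fibres, had been injected into the tibialis anterior of male mice aged 8 to 12 weeks, and cells carrying the leukocyte protein CD45 were collected with magnetic beads 2 or 4 days later (dpi2 and dpi4). Controls were Bach1 fl/fl littermates, which carry loxP sites around an exon of *Bach1* that encodes its DNA-binding domain. The mice labelled KO (Bach1-cKO) carried the same Bach1 fl/fl alleles with Lyz2-Cre, a recombinase that is driven by the *Lyz2* promoter and is therefore active in myeloid cells and not in the whole animal. *Bach1* encodes a heme-binding repressor of transcription. Each of the groups control dpi2, Bach1-cKO dpi2, control dpi4 and Bach1-cKO dpi4 was 1 library, so no spread between animals was measured, no test was run, and every interval below is a 95% interval that covers counting error only.

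Chemokines are small secreted proteins that guide cells along their concentration gradient. The products of *Ccl2*, *Ccl7* and *Ccl12* bind the receptor CCR2, through which classical monocytes leave the bone marrow and enter injured tissue, while mouse CCL8 is known mainly as a ligand of CCR8. CCL7 also binds CCR1 and CCR3, and the genes are induced by inflammatory cytokines, interferons and bacterial products.

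The genes lie near each other in the chemokine cluster of chromosome 11 (GRCm38, the assembly behind mm10; GENCODE annotation, plus strand, 3 exons each). *Ccl2* (ENSMUSG00000035385) spans positions 82035571 to 82037453 and *Ccl7* (ENSMUSG00000035373) spans 82045712 to 82047525. *Ccl12* (ENSMUSG00000035352) spans 82101845 to 82103400 and *Ccl8* (ENSMUSG00000009185) spans 82115185 to 82116799. The stretch from the first to the last base of this group was 81229 bases and held 6 annotated genes. *Ccl11*, another chemokine gene, lies between *Ccl7* and *Ccl12*. A further gene, *Gm17268*, overlaps *Ccl2* on the minus strand and had 0 UMIs in the kept cells of all 4 libraries. No stretch of 50 bases in any transcript of the 4 chemokine genes occurred in a transcript of another gene, so their counts were not shared with a near-identical copy at that length.

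RefSeq promoter sequences (GRCm38.p6) matched 2 of the 4 genes, *Ccl12* and *Ccl8*, and are shown for these because no others were matched. In macrophages, *Ccl12* had the lowest ratio between genotypes in CPM and *Ccl8* the smallest difference between time points in CPM. The 250 bases before each start are shown for chr11:82101595-82101844 (*Ccl12*) and chr11:82114935-82115184 (*Ccl8*), both on the plus strand, and capitals mark the letters TATAAA.
Ccl12: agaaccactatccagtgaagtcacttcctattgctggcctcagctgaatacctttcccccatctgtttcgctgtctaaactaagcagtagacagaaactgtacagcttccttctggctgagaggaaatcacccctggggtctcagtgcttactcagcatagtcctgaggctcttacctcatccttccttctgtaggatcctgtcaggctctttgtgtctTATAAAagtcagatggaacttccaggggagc
Ccl8: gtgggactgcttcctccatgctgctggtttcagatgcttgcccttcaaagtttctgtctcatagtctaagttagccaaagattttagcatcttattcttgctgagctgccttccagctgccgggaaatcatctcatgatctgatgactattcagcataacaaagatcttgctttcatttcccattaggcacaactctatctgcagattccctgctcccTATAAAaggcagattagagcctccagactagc
TATAAA began 31 bases before the start of *Ccl12* and 32 bases before the start of *Ccl8*, and these letters were found in 12.4% of 32851 promoter windows of the mouse. On both strands the windows were also searched for TGACTCA (an AP-1 motif, in 4.46% of all windows), a longer BACH1 motif that contains the AP-1 motif read on the other strand (in 0.134%), and an NF-kB motif (in 0.356%). None of these 3 was in either window, which says only that the letters are not in these bases.

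The deposited values were counts of unique molecular identifiers (UMIs), in which each RNA molecule captured by its 3′ end counts once, and levels are given as UMIs per 1000000 UMIs of the summed cells (CPM). The libraries held 4177 to 6602 barcodes and 57010520 to 80228489 UMIs, and 3433 to 5721 cells were kept. Fibroblasts, which lack CD45, numbered 5, 2, 147 and 44 (control dpi2, Bach1-cKO dpi2, control dpi4 and Bach1-cKO dpi4). Any pair of libraries shared between 2 and 14 barcodes. *Lyz2* itself, into which the Cre is inserted, had 9465 and 16284 CPM in the control libraries and 17.4 and 21.9 CPM in those labelled KO. *Hmox1*, a gene that BACH1 represses, had 499 and 424 CPM in the controls and 8226 and 6362 CPM in Bach1-cKO cells. *Bach1* counts per gene were 188 and 211 CPM against 187 and 217 CPM, and they check nothing here, because UMIs at the 3′ end do not read the deleted exon. Cells were named from markers such as *Apoe* and *Mertk* for macrophages and *Ly6c2*, *Vcan* and *Chil3* for monocytes, after clustering without the chemokine genes. A cluster led by *Mmp12*, *Acta1* and *Actc1*, called c5, stayed unnamed, because muscle genes led it beside a full set of macrophage markers.

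Macrophages and monocytes were the source of nearly all counts of the 4 genes. At dpi2 these classes together held at least 97.2% of the UMIs of any of the 4 genes in either library. At dpi4 they held at least 76.7%, and most of the rest came from cluster c5, which had 19.2% of the *Ccl2* UMIs in the control and 12.0% in the Bach1-cKO library. Such shares depend on how many cells of each class were captured. Macrophages numbered 1962 (control dpi2), 1068 (Bach1-cKO dpi2), 2428 (control dpi4) and 2359 (Bach1-cKO dpi4), and monocytes 2511, 977, 49 and 58.

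*Ccl2*, the best known attractant of classical monocytes, was high in both classes at dpi2 and stood above the macrophage level in the monocytes of each library. In macrophages it had 2228 CPM in the control and 1597 CPM in the Bach1-cKO library at dpi2, and 202 and 155 CPM at dpi4. In monocytes it had 2942 and 2800 CPM at dpi2, and 921 and 751 CPM at dpi4. Monocytes therefore held 47.1% and 44.4% of the *Ccl2* UMIs at dpi2 but 3.46% and 4.17% at dpi4, when few monocytes were captured. In dendritic cells the level was 260 and 183 CPM at dpi2 and 38.5 and 38.0 CPM at dpi4. Fibroblasts, which were captured in numbers only at dpi4 (147 and 44 cells), had 76.5 and 74.9 CPM then. The few caught at dpi2, 5 control and 2 Bach1-cKO cells, held 403 and 164 UMIs of the 4 genes. *Ccl2* gave 69.2% and 98.8% of these UMIs, so the dpi4 level does not stand for dpi2. Neutrophils had 235, 155, 237 and 29.5 CPM, and in the control library at dpi4 a single cell held 85 of their 88 UMIs.

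*Ccl7*, whose product also acts on other leukocytes, was high in the same classes at dpi2. Macrophages had 1847 and 1225 CPM at dpi2 and 116 and 83.7 CPM at dpi4 (control and Bach1-cKO). Monocytes had 1610 and 1327 CPM at dpi2 and 679 and 139 CPM at dpi4. Macrophages held 60.9% and 64.2% of the *Ccl7* UMIs at dpi2 and 76.0% and 86.4% at dpi4.

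By the cluster-based classes, most *Ccl8* UMIs were counted in macrophages in every library. Macrophages had 311 and 251 CPM at dpi2 and 230 and 165 CPM at dpi4, and they held 85.6%, 95.7%, 82.4% and 91.6% of its UMIs (control dpi2, Bach1-cKO dpi2, control dpi4 and Bach1-cKO dpi4). Monocytes had 70.0, 9.28, 17.5 and 22.4 CPM, of which a single control cell at dpi2 gave 381 of 1852 UMIs. These monocyte levels stood beside 34.6, 26.7, 15.8 and 11.7 CPM in T and NK cells, which should lack the gene, and the control dpi2 monocytes were above that level in CPM.

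*Ccl12*, a second CCR2 ligand found in the mouse, was shared between the classes at dpi2. Macrophages had 359 and 192 CPM at dpi2 and 60.4 and 40.1 CPM at dpi4. Monocytes had 435 and 173 CPM at dpi2 and 56.7 and 114 CPM at dpi4, the last values from 26 and 51 UMIs. Monocytes held 45.5% of the *Ccl12* UMIs of the control library at dpi2 and 29.5% of those of the Bach1-cKO library.

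**Figure D1:**
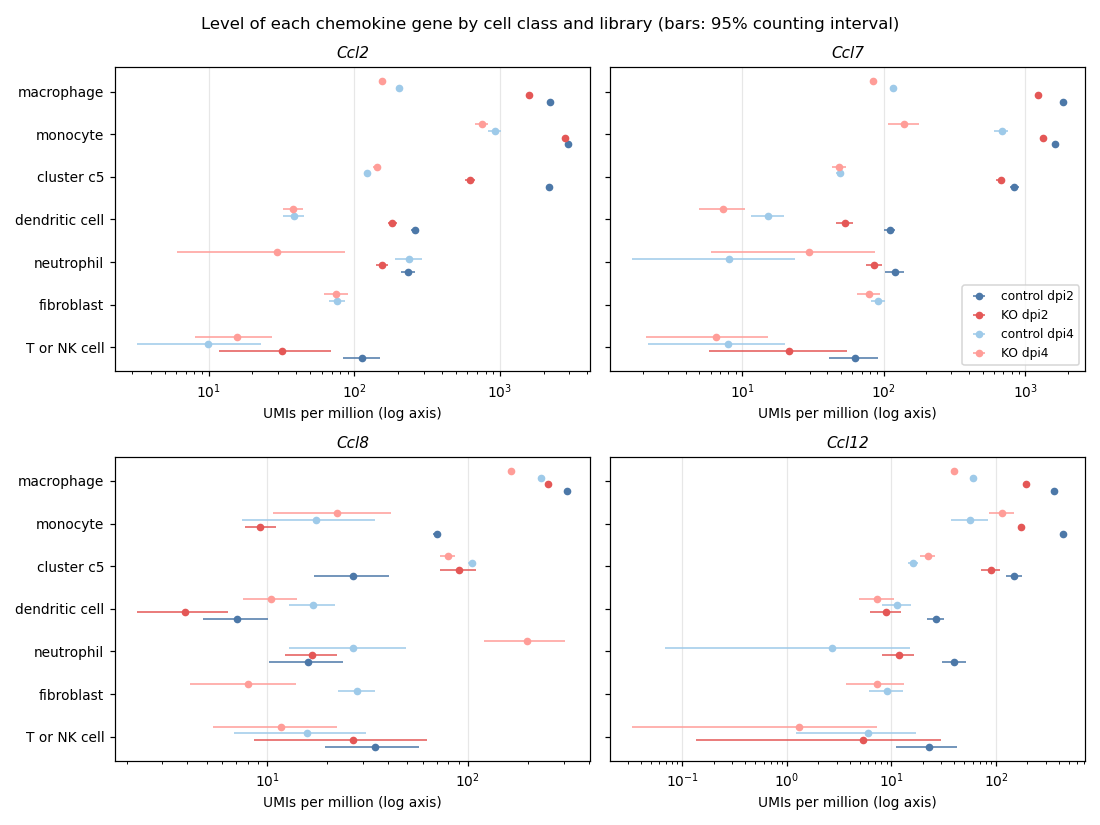
Level of each chemokine gene (CPM, log axis) for the 4 libraries in macrophages, monocytes, cluster c5, dendritic cells, neutrophils, fibroblasts and T and NK cells. A point is drawn where a class had at least 25 cells and 1 UMI in the library, and bars are exact Poisson intervals for counting error. Endothelial cells and the other unnamed clusters are not drawn. Macrophages and monocytes carried high dpi2 levels of *Ccl2* (1597 to 2942 CPM) and *Ccl7* (1225 to 1847 CPM), and for *Ccl8* the macrophages stood above the monocytes in every library.

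Counted as cells, *Ccl2* and *Ccl7* were widespread in macrophages at dpi2 and *Ccl8* was not. To compare libraries of unequal depth, counts were drawn at random down to 2000 UMIs in each cell (thinning), which left out 26 to 79 shallower macrophages per library. At dpi2 at least 1 *Ccl2* UMI was then found in 78.6% (interval 76.7% to 80.4%) of control and 72.8% (70.0% to 75.5%) of Bach1-cKO macrophages, and at dpi4 in 19.4% (17.8% to 21.1%) and 18.7% (17.1% to 20.3%). For *Ccl7* the shares were 68.5%, 58.5%, 8.47% and 8.87%, and for *Ccl12* 26.4%, 19.3%, 7.83% and 6.03%. *Ccl8* was found in 15.3%, 11.4%, 13% and 14.0% of macrophages, nearly the same share at both time points. Without thinning the shares were 95.9%, 95.3%, 47.2% and 44.4% for *Ccl2*, 90.7%, 87.6%, 24.2% and 22.0% for *Ccl7*, 33.0%, 30.1%, 35.4% and 28.5% for *Ccl8*, and 61.3%, 53.1%, 23.1% and 20.4% for *Ccl12*. T and NK cells, thinned alike, gave 17.5%, 5.41%, 2.78% and 3.17% for *Ccl2* and 9.28%, 5.41%, 1.39% and 3.17% for *Ccl8*, at median depths of 3913 to 4935 UMIs against 15261 to 26058.5 in macrophages. Without thinning, T and NK cells gave 23.2%, 10.8%, 5.19% and 3.85% for *Ccl7* and 9.09%, 2.70%, 3.90% and 0.769% for *Ccl12*, below the macrophages in each library. *Ccl8* in thinned monocytes (2.94% and 1.24% at dpi2) was below the T and NK share at dpi2. For the Bach1-cKO library the level in CPM was below that of T and NK cells as well and is read as background, while in the control the level was above it, with counts concentrated in few monocytes.

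The *Ccl8* counts were concentrated in few cells. The 10% of macrophages richest in *Ccl8* held 87.3%, 94.1%, 89.7% and 88.6% of its UMIs in the 4 libraries, with up to 452 UMIs in a cell. For *Ccl2* such cells held less, 40.3% and 39.8% at dpi2, but 71.2% and 70.1% at dpi4. The make-up of the group of 4 moved with time accordingly. *Ccl8* gave 6.56% and 7.69% of the 4 genes' UMIs in macrophages at dpi2 and 37.8% and 37.1% at dpi4, while *Ccl7* gave 38.9% and 37.5% at dpi2 and 19.0% and 18.9% at dpi4.

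**Figure D2:**
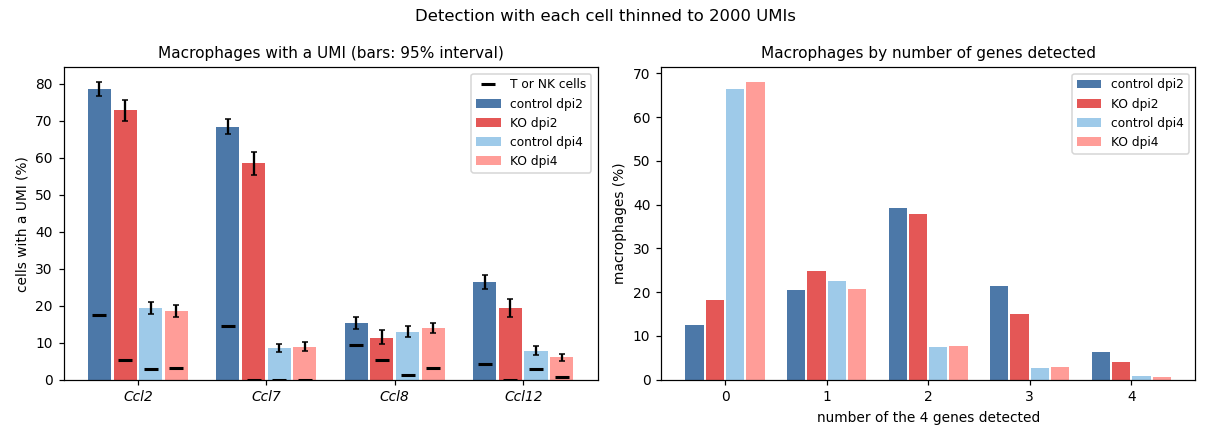
Left, percent of macrophages with at least 1 UMI of each gene after thinning to 2000 UMIs per cell, with exact binomial intervals and the T and NK share as ticks; right, percent of macrophages by the number of the 4 genes detected. *Ccl2* went from 78.6% and 72.8% at dpi2 to 19.4% and 18.7% at dpi4, and macrophages with none of the 4 genes went from 12.5% and 18.2% to 66.5% and 68.0%.

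The comparison of genotypes asked whether myeloid loss of *Bach1* went with other levels of these chemokines. Levels were compared as the ratio of Bach1-cKO over control, and a gene was said to be past the size rule where the ratio was at least 2-fold in either direction, its interval did not include 1 and both libraries together had at least 50 UMIs. In macrophages at dpi2 all 4 genes were lower in CPM in the Bach1-cKO library, *Ccl2* and *Ccl8* not so per cell, and 0 of 4 were past the size rule, against 5.21% of 11074 genes tested. The log2 ratio was -0.48 (-0.50 to -0.46) for *Ccl2*, -0.59 (-0.61 to -0.57) for *Ccl7*, -0.31 (-0.35 to -0.27) for *Ccl8* and -0.91 (-0.95 to -0.86) for *Ccl12*. Their median was -0.54, beside a median of -0.02 over all genes tested.

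The Bach1-cKO macrophages at dpi2 held more UMIs per cell, 27212.5 on average against 19093.5 in the control, and 2 of these directions rested on the scaling. Per cell, *Ccl2* had 43.4 UMIs in Bach1-cKO and 42.5 in control macrophages (log2 0.03) and *Ccl8* had 6.83 and 5.94 (log2 0.20). *Ccl7* had 33.3 and 35.3 UMIs per cell (log2 -0.08) and *Ccl12* had 5.22 and 6.86 (log2 -0.39). Neutrophil markers moved with the genotype in these macrophages, as their 8 genes summed to 113 CPM in the control and 311 CPM in the Bach1-cKO library, with 0 and 1 of them at 0 UMIs. The 7 monocyte markers summed to 1525 and 1564 CPM. The part of depth, cell size and neutrophil RNA in these differences was not tested.

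In macrophages at dpi4 the 4 genes were again lower in the Bach1-cKO library as a whole, in CPM and per cell, though not in every subset of cells described below, and 0 of 4 were past the size rule, against 2.56% of 11778 genes. The log2 ratios of CPM were -0.38 (-0.43 to -0.33) for *Ccl2*, -0.47 (-0.53 to -0.41) for *Ccl7*, -0.48 (-0.53 to -0.44) for *Ccl8* and -0.59 (-0.68 to -0.50) for *Ccl12*. Their median was -0.48 and that of all genes was 0.00. Per cell the values lay between -0.64 and -0.43, at mean depths of 17577.5 and 18192.1 UMIs. Muscle markers, 7 genes with none at 0 UMIs, summed to 60.1 CPM in the control and 23.8 CPM in the Bach1-cKO macrophages, and their part in the result was not tested.

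In monocytes at dpi2, *Ccl12* was lower in the Bach1-cKO library and past the size rule, and *Ccl8* met the rule with its Bach1-cKO level at background, so that 2 of 4 genes met it against 2.75% of 9977 genes in this direction. The ratio of *Ccl12* was 0.398 (0.381 to 0.416), from 2408 against 11519 UMIs. That of *Ccl8* was 0.133 (0.110 to 0.159), from 129 against 1852 UMIs. Its 9.28 CPM in Bach1-cKO monocytes lay below the 26.7 CPM of T and NK cells, so the ratio is not read as a difference in expression. That background is only loosely known, as those 37 T and NK cells held 16 UMIs of the 4 genes, 31.25% of them *Ccl8*. On the log2 scale the *Ccl8* ratio moved from -2.91 to -1.11 with cells named by marker score. *Ccl2* differed little (ratio 0.952, interval 0.940 to 0.963) and *Ccl7* had a ratio of 0.824 (0.810 to 0.838). Per cell both of these were higher in the Bach1-cKO library, at 39.8 against 31.0 *Ccl2* UMIs and 18.9 against 17.0 *Ccl7* UMIs, while *Ccl12* stayed lower at 2.46 against 4.59 UMIs, a ratio of 0.537 that was no longer past the rule. With each library clustered by itself its log2 ratio was -0.94, also under 2-fold.

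The monocytes of the libraries also differed in their clusters. A cluster led by *Plac8* and *Ly6c2* (c0) held 1779 control and 279 Bach1-cKO cells at dpi2, and a cluster led by *F10*, *Vcan* and *Il6* (c4) held 732 and 698. *Ccl12* had 545 CPM in c0 and 194 CPM in c4 of the control. Within clusters its ratio was 0.614 (0.577 to 0.653) in c0 and 0.618 (0.574 to 0.666) in c4, both nearer to 1 than the 0.398 of all monocytes. When clustered again with the macrophages alone, the monocytes too fell into nearly separate sub-clusters by genotype (1078 control and 17 Bach1-cKO cells, 737 and 3, 686 and 20, and 2 and 929), and whether c0 and c4 hold the same states in both genotypes was not tested.

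Monocytes at dpi4 were few, 49 and 58 cells, and their values went in several directions. *Ccl7* had 311 UMIs in the control and 62 in the Bach1-cKO library (log2 ratio -2.29, interval -2.71 to -1.89) and *Ccl12* had 26 and 51 (1.01, 0.30 to 1.75), so that 2 of 4 genes were past the size rule, against 4.74% of 2867 genes. *Ccl2* had a log2 ratio of -0.29 (-0.51 to -0.08), and *Ccl8* had 8 and 10 UMIs. With separate clustering of each library the *Ccl7* log2 ratio turned to 0.24, that of *Ccl2* to 1.72, past the size rule, and that of *Ccl12* was 3.26, so these values rested on which cells were called monocytes. The *Ccl8* log2 ratio ranged from -1.26 to 1.82 under the alternatives, and *Ccl12* was under 2-fold per cell (0.73) and with at least 200 genes per cell (0.52).

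**Figure D3:**
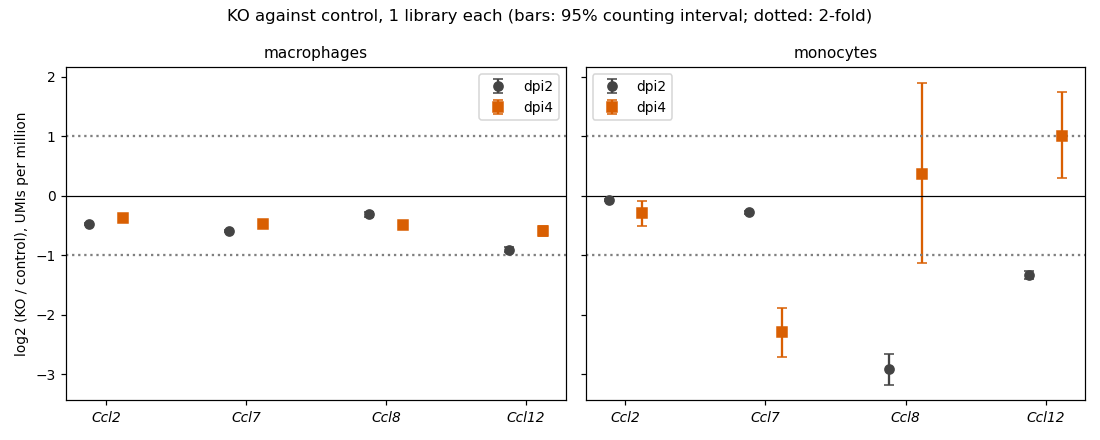
Log2 ratio of Bach1-cKO over control for the 4 genes in macrophages and monocytes at dpi2 and dpi4, in CPM with intervals for counting error. In macrophages the 8 ratios lay between -0.91 and -0.31, those of *Ccl2* and *Ccl8* at dpi2 being above 0 per cell, and the ratios farthest from 0 were those of *Ccl8* in dpi2 monocytes, where the Bach1-cKO level was at background, and of *Ccl7* in dpi4 monocytes.

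Over all kept cells, *Ccl12* had 352 CPM in the control and 153 CPM in the Bach1-cKO library at dpi2, a ratio of 0.434 (0.423 to 0.445). In CPM it was the only one of the 4 past the size rule at dpi2, against 3.13% of 12280 genes in this direction, and per cell it had 2.22 and 4.42 UMIs in Bach1-cKO and control, a ratio of 0.501 that was just under 2-fold. The ratios of *Ccl2*, *Ccl7* and *Ccl8* were 0.714, 0.656 and 0.753. At dpi4 the 4 ratios were between 0.769 and 0.851, with 0 of 4 past the rule, against 3.4% of 13311 genes. When the class levels of the Bach1-cKO library were weighted by the class mix of the control, the dpi2 ratios were 0.822, 0.722, 0.719 and 0.471 for *Ccl2*, *Ccl7*, *Ccl8* and *Ccl12*. By this weighting *Ccl2* moved most with the mix of cells and *Ccl8* not toward 1. Control class levels with the Bach1-cKO class mix gave 0.900, 0.928, 1.01 and 0.901 of the control level, so *Ccl2* and *Ccl12* moved alike by that weighting.

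Within macrophage clusters at dpi2, each of the 4 genes was lower in CPM in the Bach1-cKO cells, *Ccl2* and *Ccl8* in c1 not so per cell. In c7, a cluster led by *Lyve1* and *Cd163* (551 control and 479 Bach1-cKO cells), *Ccl12* had 801 and 323 CPM, *Ccl8* had 824 and 465 CPM, *Ccl7* had 2933 and 1632 CPM, and *Ccl2* had 3045 and 2074 CPM. Here the *Ccl12* ratio was 0.404 (0.388 to 0.419), and 14.1 against 8.30 UMIs per cell showed the same direction, as did *Ccl7* (51.8 and 41.9) and *Ccl8* (14.6 and 11.9). *Ccl2* had 53.8 and 53.3 UMIs per cell. In c1, led by *Hmga2* and *Pdpn* (1226 and 502 cells), the levels were lower than in c7, with 108 and 90.4 CPM of *Ccl8* and 162 and 92.5 CPM of *Ccl12*. *Ccl2* in c1 had 1925 and 1286 CPM but 38.1 and 38.2 UMIs per cell, and *Ccl8* had 2.14 and 2.69 UMIs per cell. When macrophages and monocytes were clustered again on their own, the macrophages of the genotypes at dpi2 fell into nearly separate sub-clusters, one with 1229 control and 9 Bach1-cKO cells, one with 523 and 12, and one with 2 and 934. No sub-cluster then had 50 cells of both genotypes at dpi2, and whether c1 and c7 hold the same states in both genotypes was not tested.

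At dpi4 the clusters did not share a direction, and here too most sub-clusters were nearly all of 1 genotype (of those with 50 cells of both, one had 380 control and 275 Bach1-cKO cells and one 85 and 65). In c2, led by *Slc40a1* and *Vcam1* (645 control and 978 Bach1-cKO cells), all 4 genes were lower in the Bach1-cKO cells, with 459 and 203 CPM of *Ccl8*, 391 and 197 CPM of *Ccl2*, 230 and 117 CPM of *Ccl7* and 66.6 and 28.1 CPM of *Ccl12*. In c8, led by *Retnla*, *Iigp1* and *Ifit2* (609 and 346 cells), *Ccl2* was higher in the Bach1-cKO cells at 276 against 176 CPM, as was *Ccl7* at 147 against 89.8 CPM. In the sub-cluster with 380 and 275 cells, led by *Retnla* and *H2-Eb1*, the *Ccl2* ratio was 1.38 (1.26 to 1.51), but that of *Ccl7* was 0.904 (0.767 to 1.06), that of *Ccl8* 0.309 (0.238 to 0.396) and that of *Ccl12* 0.558 (0.458 to 0.677). In the sub-cluster with 85 and 65 cells, led by the cell cycle genes *Hist1h1b* and *Nusap1*, *Ccl2* had a ratio of 0.517 and *Ccl7* of 0.287 (0.228 to 0.357), while *Ccl8* had 1.66 (1.31 to 2.11) and *Ccl12* had 1.07 (0.749 to 1.53). *Ccl12* in c8 had 146 CPM in the control and 153 CPM in the Bach1-cKO cells, a ratio whose interval (0.962 to 1.16) held 1. In c9, led by *Mfge8* and *Gpnmb* (500 and 462 cells), *Ccl8* had 40.0 and 63.7 CPM and *Ccl12* had 3.36 and 6.98 CPM. In T and NK cells of the control at dpi4, *Ccl12* was 15% of 20 UMIs of the 4 genes, and 3 UMIs there make 5.92 CPM. The control *Ccl12* level in c9 was thus at background, and its ratio is not read as a direction. In c10, led by *Ppm1n* and *Phkg1* (471 and 411 cells), *Ccl8* was high in both libraries, with 503 and 446 CPM. Without c2 the macrophage log2 ratio of *Ccl2* at dpi4 was -0.11 and that of *Ccl8* was -0.14, so that these differences were smaller outside that cluster.

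**Figure D4:**
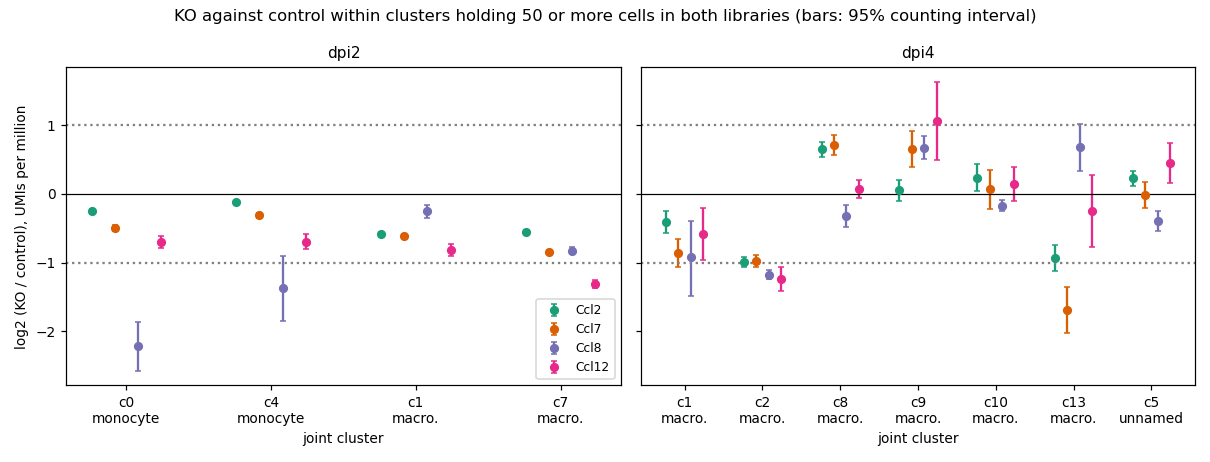
Log2 ratio of Bach1-cKO over control for each gene within clusters that had at least 50 cells in both libraries, in CPM with intervals for counting error, dpi2 and dpi4. At dpi2 the ratios of the monocyte clusters c0 and c4 and the macrophage clusters c1 and c7 lay below 0, those of *Ccl2* in c0, c1 and c4, *Ccl7* in c4 and *Ccl8* in c1 not so per cell, while at dpi4 those of c2 lay between -1.24 and -0.98 and those of c8, c9 and c10 on both sides of 0.

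Marker genes were also read cell by cell within the macrophages and monocytes named by cluster, which leaves out cluster c5. They showed where the level of each gene was raised. A macrophage or monocyte was called positive for a marker set when at least 2 of its genes were detected after thinning. Resident-like cells (set *Lyve1*, *Folr2*, *Cd163*, *Timd4* and *Cbr2*) numbered 235, 123, 159 and 109, and had 832, 631, 1266 and 1062 CPM of *Ccl8*, against 159, 130, 158 and 130 CPM in the other cells. The ratio was 5.23 (5.04 to 5.42), 4.86 (4.62 to 5.11), 8.00 (7.68 to 8.34) and 8.20 (7.74 to 8.67), the largest of the 4 genes in each library. For *Ccl2* it was 1.02 and 1.0 at dpi2, so *Ccl2* did not follow these markers then, and 3.1 and 2.5 at dpi4. *Ccl12* was also higher in resident-like cells, with ratios of 1.95, 1.68, 2.79 and 2.88. So was *Ccl7*, with 2401 and 1575 CPM at dpi2 against 1695 and 1228 CPM in the other cells (control and Bach1-cKO). At dpi4 *Ccl7* had 440.5 and 255.9 CPM against 100.3 and 77.5 CPM. Being few, the resident-like cells held 30.5%, 31.3%, 34.9% and 23.2% of the *Ccl8* UMIs of monocytes and macrophages. *Folr2* and *Lyve1* mark tissue-resident macrophages of many organs.

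Cells with an interferon response (set *Ifit3*, *Isg15*, *Cxcl10*, *Rsad2* and *Ifit2*) held more *Ccl12* than the other cells. They had 652 and 416 CPM at dpi2 and 207 and 174 CPM at dpi4, against 253, 156, 27.4 and 18.9 CPM in the other cells, ratios of 2.58, 2.66, 7.55 and 9.22. Interferon-positive cells made up 39.8% of control monocytes and macrophages but 13.6% of Bach1-cKO ones at dpi2, and 19.8% and 16.5% at dpi4. They held 57.6% and 25.6% of the *Ccl12* UMIs at dpi2 and 62.8% and 60.4% at dpi4, and 38.6%, 16%, 35.6% and 29.8% of the *Ccl8* UMIs in the 4 libraries, more than the resident-like cells in all but Bach1-cKO dpi2. *Ccl12* was lower in the Bach1-cKO library among both positive cells (ratio 0.638, 0.609 to 0.668) and negative cells (0.617, 0.597 to 0.637) at dpi2, while over all monocytes and macrophages together its log2 ratio was -1.07. *Ccl8* was also higher in interferon-positive than in negative cells, with ratios of 1.19, 1.47, 2.46 and 2.57. Between genotypes *Ccl8* in positive cells had 237 and 241 CPM at dpi2 (ratio 1.02, 0.957 to 1.09).

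Cells with growth factor markers (*Gpnmb*, *Gdf15*, *Igf1* and *Cd36*) were poorer in *Ccl12* than the others in every library, with ratios of 0.40, 0.50, 0.44 and 0.42. *Ccl2* in these cells had ratios of 0.74, 0.66, 0.80 and 0.57. *Ccl8* had 0.61, 1.42 (1.35 to 1.48), 0.59 and 0.67, so the Bach1-cKO library at dpi2 went the other way. Among the positive cells at dpi2 *Ccl8* was higher in the Bach1-cKO library, at 212 against 152 CPM (ratio 1.40, 1.33 to 1.46), and among the negative cells it was lower, at 150 against 250 CPM.

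Cells with MHC class II markers (*H2-Ab1*, *H2-Aa*, *H2-Eb1*, *Cd74* and *Ciita*), whose products present antigen, differed between genotypes at dpi4 from the macrophages as a whole. In positive monocytes and macrophages *Ccl2* was higher in the Bach1-cKO library, at 199 against 166 CPM (ratio 1.2, 1.13 to 1.27), as was *Ccl8*, at 172 against 130 CPM (1.32, 1.24 to 1.42). In negative cells the ratios were 0.65 and 0.58. *Ccl7* had a ratio of 1.01 (0.92 to 1.12) in positive and 0.59 in negative cells, and *Ccl12* had 0.85 and 0.66. Positive cells made up 40.2% of the control and 25.7% of the Bach1-cKO monocytes and macrophages at dpi4. In the dpi4 sub-cluster led by *Retnla* and *H2-Eb1*, given above, the *Ccl2* ratio was also above 1 (1.38). That of *Ccl8* was 0.309 there, so its direction rested on how the cells were chosen.

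**Figure D5:**
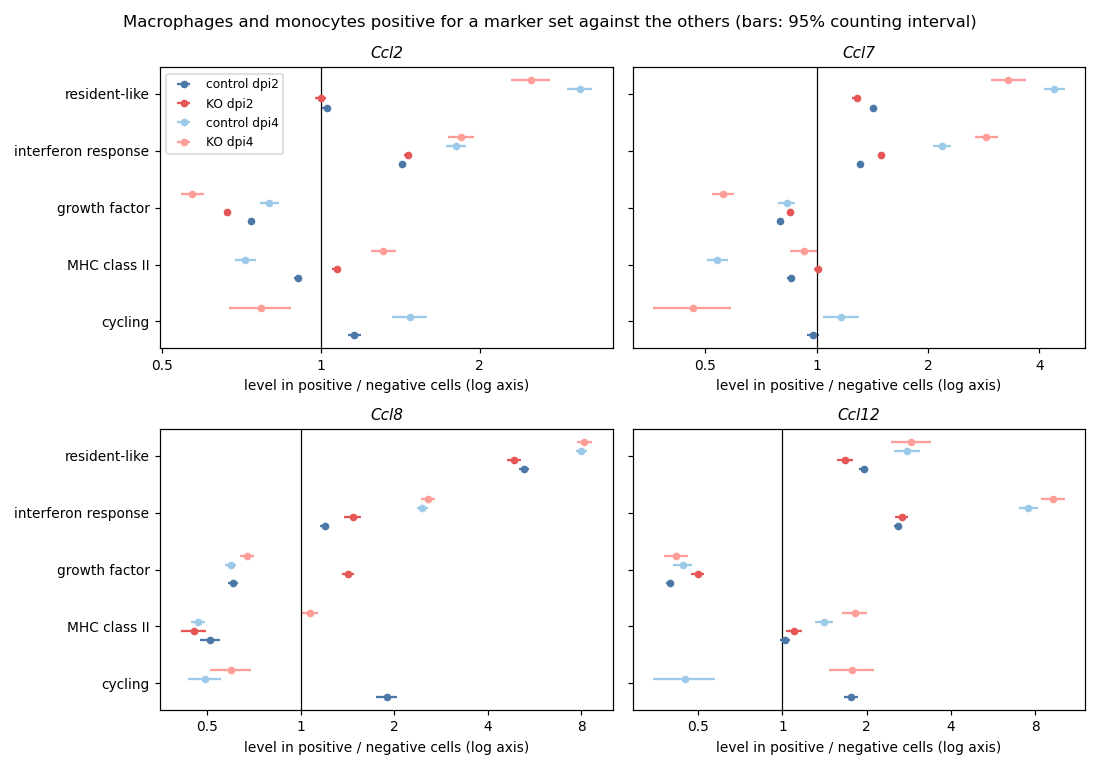
Ratio of the level (CPM) in monocytes and macrophages positive for a marker set over those negative for it, for each gene and library with at least 25 positive cells, with intervals for counting error. *Ccl8* stood at 4.86 to 8.20 in resident-like cells and *Ccl12* at 2.58 to 9.22 in cells with an interferon response.

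The comparison of time points set different mice, 1 library each, beside each other. In macrophages *Ccl2*, *Ccl7* and *Ccl12* were lower at dpi4 than at dpi2 and past the size rule in both genotypes, 3 of 4 genes each, against 5.31% of 11589 genes lower in the controls and 5.01% of 11346 in the Bach1-cKO libraries. The log2 ratio of dpi4 over dpi2 in the controls was -3.99 (-4.04 to -3.95) for *Ccl7*, -3.46 (-3.49 to -3.43) for *Ccl2* and -2.57 (-2.63 to -2.51) for *Ccl12*. In the Bach1-cKO libraries the values were -3.87, -3.36 and -2.26. *Ccl8* was only a little lower, at -0.43 (-0.47 to -0.40) in the controls and -0.61 (-0.66 to -0.56) in the Bach1-cKO libraries in CPM, although per cell the latter was -1.24. Because few clusters held macrophages of both time points, these values compare largely different clusters. In c1, which had at least 69 cells in every library, *Ccl2* was lower at dpi4 by log2 -2.32 in the controls and -2.14 in the Bach1-cKO libraries, and *Ccl8* by -1.23 and -1.90. In the sub-clusters with 50 cells at both time points the *Ccl8* values were lower still, at -1.58 in the one led by *Hmga2* and *Pcdh7*, -2.83 in the one led by *Hist1h1b* and *Nusap1*, and -4.03 (5 UMIs at dpi4) in the one led by *2010005H15Rik* in the controls, and -3.79 (19 UMIs at dpi4) in the one led by *Ppbp* in the Bach1-cKO libraries.

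In monocytes all 4 genes were lower at dpi4 in the controls and past the rule, against 2.16% of 9508 genes, with log2 ratios from -2.94 (*Ccl12*) to -1.25 (*Ccl7*). In the Bach1-cKO libraries *Ccl7* (-3.25) and *Ccl2* (-1.90) were lower and past the rule, 2 of 4 against 3.49% of 8672 genes. *Ccl12* had -0.60 there, and *Ccl8* had 10 UMIs at dpi4. The *Ccl8* value of the controls rests on 8 UMIs at dpi4 (17.5 CPM, beside 15.8 CPM in T and NK cells) and on the dpi2 monocytes in which 1 cell gave 381 of 1852 UMIs.

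Among single macrophages the genes were found together more often than their own shares would give. *Ccl2* and *Ccl7* were detected in the same thinned cell 1.14 and 1.21 times as often at dpi2, where most cells had *Ccl2*, and 3.31 and 3.41 times at dpi4. *Ccl8* and *Ccl12* gave 1.78, 2.09, 2.21 and 2.49 times, and *Ccl7* and *Ccl12* gave 1.24, 1.41, 3.21 and 3.84. Cells with all 4 genes were 6.40% and 4.13% of macrophages at dpi2 and 0.766% and 0.568% at dpi4. Genes of a cell share its library and the spread of states within the class, so these are descriptions.

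Across 37 units, each a cluster in a library with at least 50 cells, the genes fell into different company. Over 9677 genes, the closest to *Ccl2* was *Ccl7* (Pearson r 0.95 of log2 CPM with a pseudocount of 1), followed by *Metrnl* (0.91), *Arf1* (0.88), *Chil3* (0.88) and *Rbms1* (0.87). The closest to *Ccl7* after *Ccl2* were *Ccl12* (0.90), *Metrnl* (0.88), *Etv5* (0.86) and *Chil3* (0.83). For *Ccl12* they were *Ccl7*, *Snx2* (0.87), *Ccl2* (0.85), *Metrnl* (0.84) and *Etv5* (0.84). *Ccl8* stood apart, with r of 0.30 to *Ccl2*, 0.35 to *Ccl7* and 0.52 to *Ccl12*. Its closest genes were *Osbpl11* (0.83), *Folr2* (0.83), *Wwp1* (0.82), *Itsn1* (0.81) and *Slco2b1* (0.81), of which *Folr2* encodes a folate receptor and *Slco2b1* an anion transporter. The units share libraries and cell classes, so r is given without a test.

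The receptors for these ligands sat in other proportions than the ligands. *Ccr2*, the receptor of CCL2, CCL7 and CCL12, had 1169 and 1254 CPM in monocytes at dpi2 and 943 and 1222 CPM at dpi4, against 300.4, 310.7, 247 and 178 CPM in macrophages (control dpi2, Bach1-cKO dpi2, control dpi4 and Bach1-cKO dpi4). *Ccr1* was highest in neutrophils, with 1310 and 1146 CPM at dpi2. *Ccr8* had 0 UMIs in macrophages, monocytes, dendritic cells and T and NK cells of all libraries, and 1 UMI in neutrophils. Of 4 receptors tested in macrophages, 0 were past the size rule at dpi2, against 5.21% of all genes tested, and at dpi4 1 was, against 2.56%, as *Ccr3* was higher in the Bach1-cKO library (8.80 against 1.22 CPM). With so few receptors, these counts say little beside those shares. Between time points *Ccr1* was lower in macrophages at dpi4 in both genotypes, with log2 ratios of -1.20 and -1.92, while *Ccr3* had 1.44 and 1.22 CPM in the controls and 2.24 and 8.80 CPM in the Bach1-cKO libraries at dpi2 and dpi4.

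In macrophages at dpi2 several genes of the pathways that induce these chemokines were higher in the Bach1-cKO library, where the 4 chemokine genes were lower in CPM. Of 8 inducing cytokines and sensors tested, of 11 listed, 4 were higher in the Bach1-cKO library and past the size rule and 0 were lower, against 2.42% of all genes tested that were higher, and their median log2 ratio was 1.08. These 4 were *Il1b* (506 against 121 CPM) and *Il1a* (24.8 against 2.72 CPM), which encode interleukin-1, *Il6* (7.85 against 0.641 CPM) and *Il10* (51.8 against 21.4 CPM), an anti-inflammatory cytokine. Of 14 transcription factors and feedback regulators, *Cebpb* (1053 against 491 CPM) and the NF-kB inhibitor *Tnfaip3* (418 against 207 CPM) were higher and 0 were lower. Of 2 chemokine-cutting proteases tested, *Mmp14* was higher (122 against 53.7 CPM). Several of these genes are named in the study from these libraries, so their counts are no independent evidence. Neutrophil markers were higher in the same Bach1-cKO macrophages (113 and 311 CPM, as given above), and neutrophils themselves had 17066 and 19832 CPM of *Il1b*, 5337 and 5620 CPM of *Cebpb* and 1702 and 1200 CPM of *Tnfaip3* (control and Bach1-cKO dpi2). *Il6* had at most 0.713 CPM there, and the part of neutrophil RNA in this list was not tested. None of 4 genes of mRNA decay and glucocorticoid response was past the rule. At dpi4, of these lists, none of the cytokine, transcription factor, protease and decay genes was past the rule in macrophages, against 2.56% of all genes in either direction and 0.875% that were higher, while *Ccl1*, a neighbour on chromosome 11, had 100 UMIs in the Bach1-cKO library and 0 in the control.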

How the data were processed

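The authors deposited raw UMI counts per gene and barcode, made with Cell Ranger 6.1.2 and mm10 per the labels' processing notes and not normalized. The labels name another version of the 3′ kit than the study's methods. Barcodes were kept with a mitochondrial share under 10% and at least 500 genes, and the highest Scrublet scores were removed at 0.8% per 1000 cells (100 to 289 barcodes per library). Cells were clustered jointly with the members and the pathway lists kept out of the 2000 variable genes (30 components, 15 neighbours, Leiden resolution 1; scanpy 1.11.5, leidenalg 0.10.2), and clusters were named from fixed markers. UMIs were summed per class and library. CPM values have exact Poisson intervals, ratios exact conditional binomial intervals and shares Clopper-Pearson intervals (scipy 1.17.1), checked on simulated data. Groups came from the labels. TMM factors (edgeR 4.0.16) and median-of-ratios factors were among the alternatives. With 1 library per group, the study's Wilcoxon test over cells was not used. Columns of values left unused numbered 0. Named were the 4 genes, genes of the pathway lists past the size rule in macrophages, and the 5 genes most like each member. Receptor levels outside macrophages were chosen after their values were seen. The members and lists were chosen with earlier results of these data known. Some items are not reported here.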

Additional observations from a re-analysis of the deposited data

Results flagged for a closer look

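*Ccl12* in monocytes had opposite directions at the time points, with a log2 ratio of Bach1-cKO over control of -1.33 at dpi2 and 1.01 at dpi4, the latter from 26 and 51 UMIs in 49 and 58 cells. Within macrophages at dpi4, *Ccl12* had a log2 ratio of -1.24 in the cluster led by *Slc40a1* and *Vcam1* and of 1.05 in the cluster led by *Mfge8* and *Gpnmb*, the latter from 41 and 84 UMIs. The control level behind the 1.05 lay below that of T and NK cells, so that ratio is not read as a direction. With 1 library per group neither difference was tested.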

How the results depend on the processing

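In macrophages 52 of 52 ratios under the alternatives kept the direction of the reported value at dpi4 and 50 of 52 at dpi2, the exceptions being *Ccl2* and *Ccl8* per cell; in monocytes the numbers were 38 of 40 at dpi2 and 36 of 40 at dpi4. *Ccl12* in macrophages at dpi2 ranged from -1.10 to -0.39, *Ccl2* from -0.66 to 0.03, *Ccl7* from -0.66 to -0.08 and *Ccl8* from -0.57 to 0.20. The number of the 4 genes past the size rule in macrophages at dpi2 went from 0 to 1 (*Ccl12*) with a mitochondrial limit of 20%, and to 1 with monocytes and macrophages pooled. In monocytes it went from 2 to 1 at dpi2 with each library clustered by itself or per cell, and from 2 to 1 at dpi4 with at least 200 genes per cell or per cell. *Ccl7* in dpi4 monocytes turned from -2.29 to 0.24 with each library clustered by itself, and *Ccl2* from -0.29 to 1.72. The lowest share of a gene held by macrophages and monocytes went from 97.2% to 95.9% (at least 200 genes) and 75.4% (cells named by marker score) at dpi2, and from 76.7% to 63.7% and 78.5% at dpi4. The number of all genes past the size rule in macrophages went from 577 to 897 with at least 1 UMI, 337 with at least 200 UMIs and 1309 at 1.5-fold at dpi2, and from 301 to 613, 129 and 887 at dpi4; in monocytes it went from 462 to 804, 285 and 1146 at dpi2, and from 136 to 454, 24 and 376 at dpi4. The cause of these shifts was not tested, other than the filters' own construction. Counting per cell, the mean over cells, adding cluster c5 to macrophages and leaving out c2 were chosen after seeing the data. No paired analysis was possible because the labels carry no replicate numbers and each group was 1 library. The 49 and 58 monocytes at dpi4 limit what can be said of them.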
